A study of Homo sapiens with 6 samples.

Results

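Antisense transcripts are RNAs read from the DNA strand opposite to another gene. Some start beside the promoter of a coding gene, some lie wholly within it and others run across its far end, and most are kept at a low level in the nucleus. A few act on the coding gene they face or carry small nucleolar RNAs in their introns, whereas most have no known role and bear only the name of the genomic clone on which they were annotated. The 123 transcripts described here were selected on measured values. They are the rows of the table with the biotype antisense and a mean of at least 3 FPKM (fragments per kilobase of gene, scaled to the library total) over 6 libraries, leaving out KCNQ1OT1 and genes whose names start with SNHG. The table held 5583 antisense rows among 58735 genes, of which 3755 had a read in some library and 570 reached a mean of 1 FPKM. Each transcript was set beside the protein-coding gene, here called its partner, whose span shared the most bases with its own.

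The cells were HCT116SCs, stem-like cells sorted for CD44 and CD326 (the epithelial antigen EPCAM) from HCT116, a colorectal cancer line, and kept as spheres in serum-free medium with EGF, bFGF and B27. Cells labelled wild type received NC siRNA (n = 3) and cells labelled as PSCA knockdown received siPSCA (n = 3), and both were harvested after 48 h. Which of the siPSCA sequences was used for these libraries is not named. All cells come from 1 line, and the labels name 3 replicates per group without saying whether each was a separate culture, so p-values may measure technical spread alone. The comparison asks which transcripts change when PSCA, a membrane antigen of the Ly6 family, is targeted.

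Reads on genes numbered 16099716 to 17302219 per library, and 1 read on a gene of 1 kb corresponded to 0.0549 to 0.0595 FPKM. PSCA, the targeted gene, had 4, 12 and 15 reads in NC and 9, 9 and 7 reads in the libraries labelled siPSCA, and the difference was not detectable at this depth (p = 0.5 by a 2-sided exact permutation test, which cannot fall below 0.1 with 3 libraries against 3). EPCAM lay at 107 ± 14.4 FPKM in NC and 95.0 ± 2.10 FPKM in siPSCA (SD, n = 3), and the keratins KRT8, KRT18 and KRT19 were likewise well expressed. CDH1 fell from 30.1 ± 2.04 to 19.5 ± 0.610 FPKM (log2 fold change -0.60, adjusted p = 0.001 by limma), PROM1 fell from 4.79 ± 0.404 to 2.86 ± 0.143 FPKM (-0.59, adjusted p = 0.002) and CDX2 rose from 2.15 ± 0.426 to 4.07 ± 0.0961 FPKM (0.70, adjusted p = 0.004). Of the other markers of intestinal epithelium and its stem cells, VIL1 and LGR5 had 0 to 5 and 0 to 8 reads per library and CDX1 had none. Of 10 markers of leukocytes, endothelium, fibroblasts and hepatocytes, only COL1A1 exceeded 0.5 FPKM in any library, at 4.71 ± 1.20 FPKM in NC and 6.16 ± 0.303 FPKM in siPSCA. The library NC 3 stood apart along base composition. Its deviation from the NC mean correlated with the GC content of 13792 genes at a Spearman rho of -0.56, against 0.48 in NC 1 and 0.43 in NC 2, and within siPSCA the values ran from 0.30 in siPSCA 1 to -0.38 in siPSCA 3.

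Strand decides what an antisense value can mean. The library kit was given without a statement on strand, and in a count made without strand a read on shared exon sequence cannot be assigned to one gene of a pair. Of the 123 transcripts, 67 shared at least 1 exon base with a protein-coding gene in GENCODE 29 and 56 shared none. In 6 the shared part exceeded 50% of the exon bases. The following stretches of GRCh38 are shown because they are the longest runs that 4 of the changed transcripts share with coding sequence of their partners. Each is written 5′ to 3′ along the antisense strand, with the bases that also lie in coding exons of the partner in capitals. They lie at chr11:35214852-35214934 (minus strand) for CD44-AS1 and CD44, at chr6:7298727-7298843 (plus strand) for AL139095.4 and SSR1, at chr4:185370725-185370834 (plus strand) for AC112722.1 and LRP2BP, and at chr17:28722703-28722877 (minus strand) for AC010761.1 and RPL23A.
CD44-AS1: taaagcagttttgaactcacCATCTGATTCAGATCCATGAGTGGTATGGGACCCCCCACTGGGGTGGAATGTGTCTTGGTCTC
AL139095.4: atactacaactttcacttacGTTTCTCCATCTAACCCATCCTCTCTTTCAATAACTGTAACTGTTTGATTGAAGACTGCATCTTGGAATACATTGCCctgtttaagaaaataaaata
AC112722.1: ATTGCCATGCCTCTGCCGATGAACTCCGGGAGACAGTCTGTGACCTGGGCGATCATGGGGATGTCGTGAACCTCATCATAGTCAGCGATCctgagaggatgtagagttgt
AC010761.1: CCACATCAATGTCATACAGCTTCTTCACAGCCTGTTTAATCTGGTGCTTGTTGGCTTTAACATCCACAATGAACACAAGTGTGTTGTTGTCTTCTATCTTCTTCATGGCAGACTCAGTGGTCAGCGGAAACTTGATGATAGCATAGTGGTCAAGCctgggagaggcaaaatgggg
The runs in capitals hold 63, 77, 90 and 155 bases. They make up 10.7%, 15.4%, 15.3% and 17.2% of the exon bases of the respective antisense transcripts.

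The transcripts were modestly expressed. Their mean ran from 3.05 to 25.01 FPKM with a median of 4.42 FPKM, 14 reached 10 FPKM and 76 lay under 5 FPKM. They measured 92 to 17179 bases (median 736), so that a library held 2 to 4913 reads per transcript with a median of 65.5, and 10 transcripts had under 10 reads in some library. Together they took 0.140% to 0.141% of the reads on genes in the NC libraries and 0.122% to 0.127% in the siPSCA libraries. Their summed level was 794, 783 and 756 FPKM in NC and 694, 692 and 699 FPKM in siPSCA. In bulk RNA, fewer cells that express a transcript and less of it per cell cannot be told apart. Just inside the minimum lay AL590666.1, AC011476.3 and AC138956.1 at means of 3.05, 3.06 and 3.07 FPKM, and just outside lay AC121761.1, AC145207.8 and TMEM147-AS1 at 2.99, 2.99 and 3.00 FPKM.

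The highest level belonged to AC005288.1, which lies tail to tail with MED1, a subunit of the Mediator complex. It measured 24.2, 26.2 and 27.5 FPKM in NC and 23.9, 24.7 and 23.4 FPKM in siPSCA. The groups overlapped and the change missed the threshold (log2 fold change -0.11 ± 0.06 SE, adjusted p = 0.179). AC099850.3, inside PRR11, measured 25.4, 20.6 and 28.9 FPKM in NC and 25.4, 23.3 and 17.95 FPKM in siPSCA and missed it too (-0.16 ± 0.16, adjusted p = 0.438). Both values turned slightly positive once the trend with GC content and length was removed, to 0.03 and 0.08. AL365181.3, inside BCAN, fell from 25.04 ± 1.32 to 21.5 ± 0.644 FPKM (-0.21 ± 0.06, adjusted p = 0.022). That call was kept only when NC 3 was the library left out. The values were -0.18 without NC 1, -0.20 without NC 2 and -0.23, -0.21 and -0.19 without siPSCA 1, 2 and 3. With the trend removed the fall of AL365181.3 was larger (-0.55, adjusted p = 3.9e-04).

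With siPSCA, 14 of the 123 transcripts were higher and 38 lower at an adjusted p under 0.05 by limma, and 71 did not pass the test. That is 11.4% higher and 30.9% lower, or 42.3% in all. Among all 13796 genes tested, 26.6% were higher and 24.2% lower, or 50.7% in all. Among the 11079 protein-coding genes tested 3424 were higher and 2795 lower, and among 447 antisense genes from 1 to 3 FPKM or left out by name 39 were higher and 64 lower. The median log2 fold change of the 123 was -0.04, and that of all genes tested was 0.01. The groups did not overlap in 29 transcripts that were higher and 43 that were lower, where 33.7% and 30.8% of all genes tested showed the same, and each of the 52 called transcripts was among them. Because the minimum of 3 FPKM was set on the mean of both groups, 14 transcripts entered with an NC mean under 3 FPKM and 19 with a siPSCA mean under 3 FPKM, and such a transcript could enter only by being higher in the other group. Of the 90 with both means at 3 FPKM or more, 9 were higher and 25 lower. The plot of all 123 changes in order shows the called falls reaching further from 0 than the called rises.

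**Figure D1:**
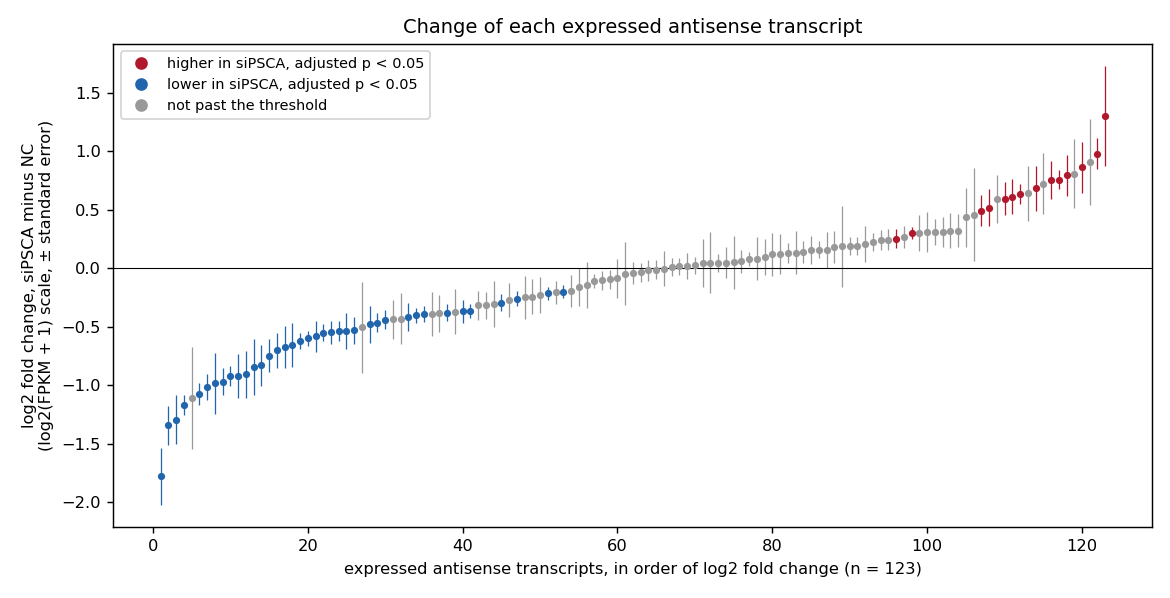
Log2 fold change (siPSCA minus NC, on the log2(FPKM + 1) scale) with its standard error for each of the 123 expressed antisense transcripts, in ascending order. Blue points (38) were lower and red points (14) higher at an adjusted p under 0.05, and the extremes are -1.78 and 1.30.

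Base composition moved with these changes. Across the 123 transcripts the log2 fold change and the GC content of the longest annotated form correlated at a Spearman rho of 0.47, and across 13792 genes at 0.66. All points come from the same 6 libraries. The transcripts called higher had a median GC content of 55.4%, those called lower 42.7% and the others 48.9%. Under 40% GC, 17 of 28 transcripts were lower and 1 was higher, whereas above 50% GC 11 of 50 were lower and 9 higher. The shares of all genes in these GC ranges were not counted, so whether these counts are particular to antisense transcripts was not tested. After each library had been freed of a smooth trend along GC content and length, 20 transcripts were higher and 28 lower, against 21.2% and 18.4% of all genes tested. The rho fell to 0.01, which the removal is built to bring about. Of the calls made before, 9 of 14 higher and 25 of 38 lower were made again in the same direction, and none was made in the opposite one. The sign held for 14 of 14 and 37 of 38. The part of base composition in the changes was not tested.

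**Figure D2:**
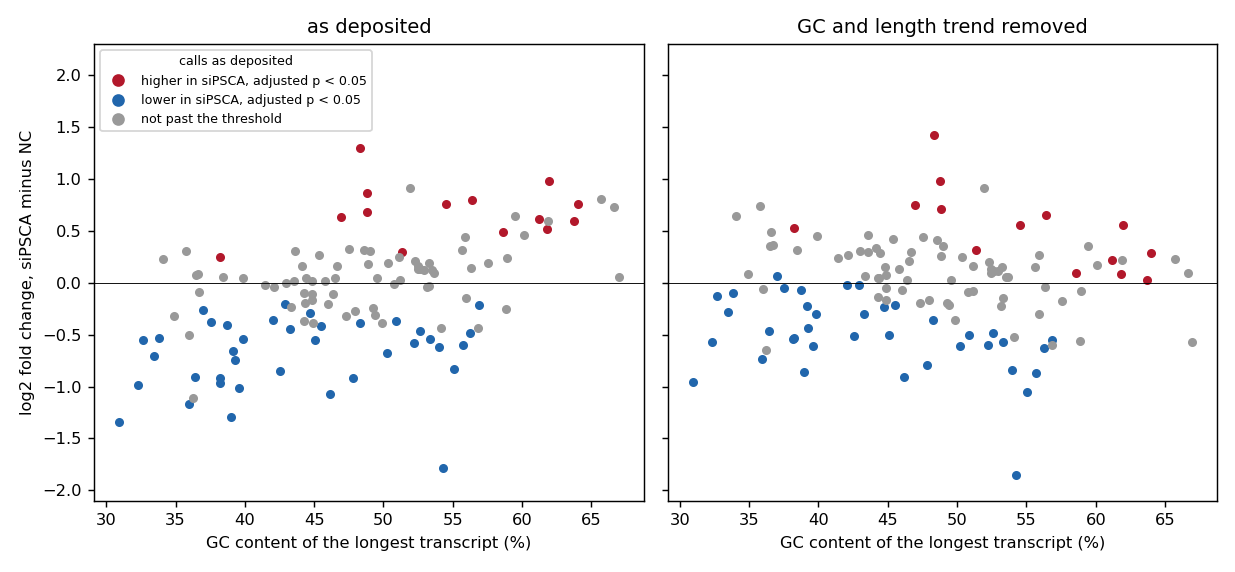
Log2 fold change (siPSCA minus NC) against the GC content in percent for the 123 transcripts, as deposited (left) and after the trend with GC content and length was removed (right). Colours give the calls as deposited. The Spearman rho is 0.47 on the left and 0.01 on the right, where the removal is built to lower it.

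LINC00659 fell the most. This RNA (ENSG00000228705, chr20:62774128-62775412, minus strand) overlaps no coding gene and shares no exon base with any gene. It measured 16.2, 13.9 and 12.04 FPKM in NC and 1.97, 4.17 and 4.37 FPKM in siPSCA, with 112 to 147 reads against 18 to 43. All siPSCA libraries lay under all NC libraries, and the log2 fold change was -1.78 ± 0.24 (adjusted p = 0.003). Its GC content is 54.3%, and the value was -1.86 with the trend removed. AC092611.2 (chr4:151667224-151670502, plus strand), also without an overlapping coding gene, followed at -1.34 ± 0.17 (adjusted p = 0.002), with 11.9, 8.69 and 10.1 FPKM in NC and 2.92, 2.96 and 4.51 FPKM in siPSCA. The groups were well apart, although 69.7% of its exon bases are shared with another annotated gene, so its reads are uncertain.

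CD44-AS1 lies inside CD44 on the other strand (ENSG00000255443, chr11:35210343-35214985, minus strand). CD44 encodes the hyaluronan receptor by which these cells were sorted. CD44-AS1 measured 12.7, 13.4 and 13.7 FPKM in NC and 5.14, 6.13 and 4.86 FPKM in siPSCA. The groups stood far apart, and it fell by 1.17 on the log2 scale (SE 0.09, adjusted p = 0.001). CD44 itself went from 82.6 ± 4.36 to 60.7 ± 1.51 FPKM, a fall of 0.44 (SE 0.05, adjusted p = 0.002). The antisense RNA thus fell further than CD44, with a log2 change of the ratio of -0.73 ± 0.17 (adjusted p = 0.020 over 439 pairs). With the trend removed the fall of CD44-AS1 was -0.73 (adjusted p = 0.001), while that of the ratio was -0.44 and missed the threshold (adjusted p = 0.099). The GC content is 35.9% for the antisense RNA and 45.3% for CD44. Of its exon bases, 14.3% are shared with CD44 exons, including the stretch printed above.

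In most of the other large falls the partner fell as well. ALG13-AS1 (chrX:111706649-111711101) lies within ALG13, a subunit of an enzyme that builds the lipid-linked N-glycan precursor. It measured 8.85, 10.01 and 10.12 FPKM in NC and 2.12, 4.62 and 3.66 FPKM in siPSCA (-1.29 ± 0.21, adjusted p = 0.004). ALG13 fell from 8.67 ± 0.213 to 4.10 ± 0.113 FPKM (-0.92, adjusted p = 2.8e-04). The pair shares no exon base, and the ratio did not pass the test (-0.37 ± 0.21, adjusted p = 0.237). AC112722.1 (chr4:185370725-185390928) lies within LRP2BP, which encodes a protein that binds the endocytic receptor megalin. It measured 5.78, 5.67 and 6.43 FPKM in NC and 1.91, 2.49 and 2.52 FPKM in siPSCA (-1.08 ± 0.10, adjusted p = 9.0e-04). LRP2BP fell alongside from 4.88 ± 0.0462 to 1.95 ± 0.0923 FPKM (-0.99, adjusted p = 3.3e-04), leaving a ratio change of -0.08 ± 0.14. AL139095.4 (chr6:7276031-7298872) lies within SSR1, a subunit of the translocon-associated complex of the endoplasmic reticulum. It measured 5.59, 5.74 and 6.85 FPKM in NC and 2.72, 2.03 and 2.74 FPKM in siPSCA (-1.02 ± 0.11, adjusted p = 0.002), and SSR1 fell from 29.9 ± 3.06 to 18.5 ± 0.980 FPKM (-0.66, adjusted p = 0.002). AP005899.1 lies inside NDUFV2, a subunit of respiratory complex I, and measured 4.38, 5.17 and 4.37 FPKM in NC against 1.52, 3.00 and 1.61 FPKM in siPSCA (-0.92 ± 0.19, adjusted p = 0.009). NDUFV2 fell from 2.36 ± 0.199 to 0.883 ± 0.0873 FPKM (-0.83, adjusted p = 0.001). All 4 antisense RNAs kept their calls with the trend removed, at -0.86, -0.91, -0.61 and -0.80 in the order given.

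Further large falls came from transcripts inside or beside coding genes of other kinds. AC084036.1, inside the potassium channel gene KCNAB1, fell from 5.05 ± 0.749 to 2.08 ± 0.311 FPKM (-0.97 ± 0.12, adjusted p = 0.002), and its partner lay under the mean of 1 FPKM needed for the test. AC010834.3 overlaps CIBAR1 (FAM92A in the table), a BAR domain gene of the cilium, on the same strand. It fell from 5.41 ± 0.510 to 2.38 ± 0.212 FPKM (-0.92 ± 0.09, adjusted p = 9.99e-04) while the coding gene fell from 13.6 ± 0.630 to 9.54 ± 0.320 FPKM. AC084036.1 and AC010834.3 kept their calls with the trend removed, at -0.54 and -0.53, and CIBAR1 missed the threshold (-0.12). AC002553.2, inside the complex III assembly gene TTC19, fell from 6.70 ± 1.29 to 3.00 ± 1.24 FPKM (-0.99 ± 0.26, adjusted p = 0.022). It lost the call without NC 1 (-0.89) or NC 2 (-0.94) and with the trend removed (-0.57, adjusted p = 0.106). AC000123.1, inside the zinc finger gene ZNF800, fell from 6.94 ± 0.982 to 3.31 ± 1.09 FPKM (-0.91 ± 0.20, adjusted p = 0.012) and missed the threshold with the trend removed (-0.47, adjusted p = 0.091). The plot of single libraries gives the values of these falls and of the 12 largest rises, all of which were chosen among transcripts whose groups do not overlap.

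**Figure D3:**
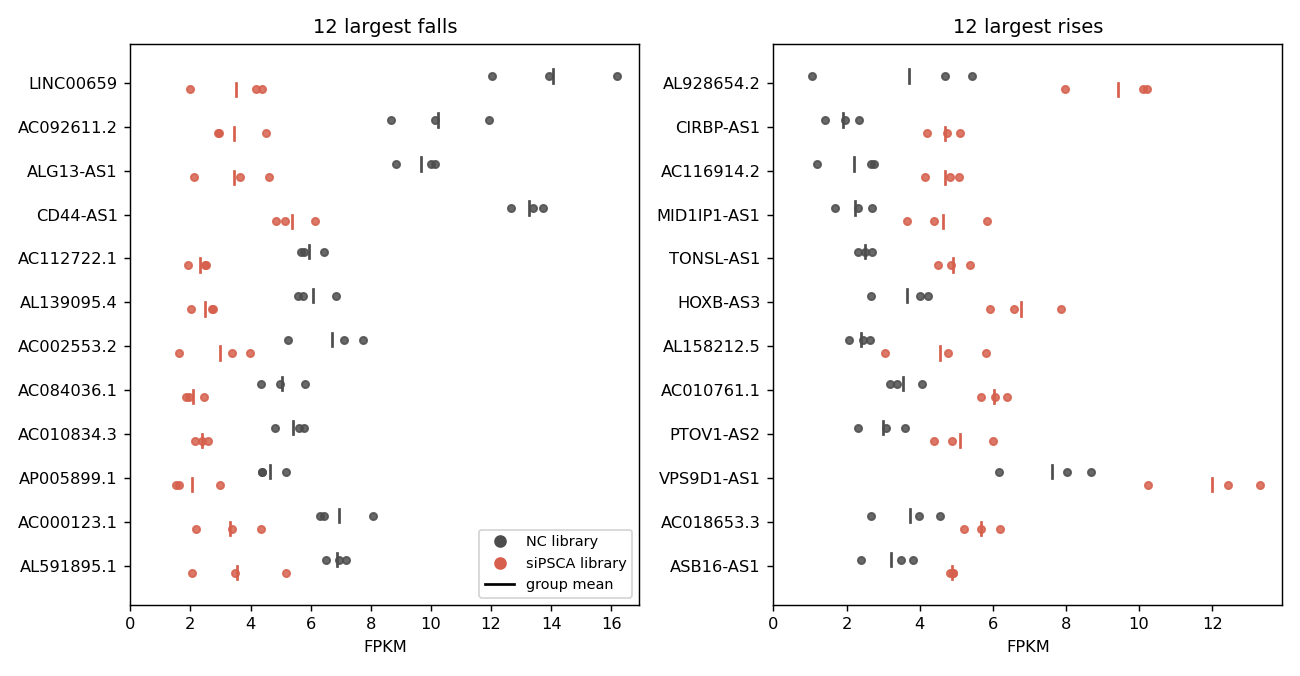
FPKM of each library for the 12 largest falls (left) and the 12 largest rises (right) among called transcripts whose groups do not overlap, with short lines at the group means (n = 3 each). LINC00659 goes from a mean of 14.1 to 3.50 FPKM and AL928654.2 from 3.71 to 9.44 FPKM, with NC 3 lowest of the NC libraries in the latter at 1.04 FPKM.

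Of the 14 rises, 11 had a partner that rose and 3 had a partner that did not pass the test. AL928654.2 (ENSG00000257270, chr14:105467793-105470617, minus strand) rose the most. It lies within MTA1, a subunit of the NuRD chromatin complex, and 68.1% of its exon bases are shared with coding genes, so its reads are uncertain. It measured 4.68, 5.42 and 1.04 FPKM in NC and 10.2, 7.97 and 10.1 FPKM in siPSCA (1.30 ± 0.43, adjusted p = 0.044). The groups did not overlap, yet NC 3 held only 8 reads. The call was lost without siPSCA 1 (1.25), siPSCA 2 (1.41) or siPSCA 3 (1.25), and without NC 3 the value was 0.78. MTA1 rose from 16.1 ± 1.75 to 23.1 ± 0.678 FPKM (0.50, adjusted p = 0.005). With the trend removed AL928654.2 stood at 1.42 (adjusted p = 0.040) and MTA1 at 0.03.

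CIRBP-AS1 (chr19:1267814-1270241, minus strand) lies within CIRBP, which encodes an RNA-binding protein induced by cold. It measured 2.33, 1.96 and 1.40 FPKM in NC and 5.11, 4.76 and 4.20 FPKM in siPSCA. Every siPSCA library exceeded every NC library (0.98 ± 0.14, adjusted p = 0.003), and the value with the trend removed was 0.55 (adjusted p = 0.002). CIRBP rose from 19.1 ± 2.58 to 27.9 ± 2.40 FPKM (0.53, adjusted p = 0.010). Only 0.402% of the exon bases of CIRBP-AS1 are shared with coding genes. MID1IP1-AS1 (chrX:38801568-38803883, minus strand) lies within MID1IP1, which encodes an activator of acetyl-CoA carboxylase. It measured 2.69, 1.68 and 2.32 FPKM in NC and 4.402, 5.84 and 3.65 FPKM in siPSCA (0.80 ± 0.18, adjusted p = 0.012). MID1IP1 rose from 14.7 ± 3.07 to 29.1 ± 0.969 FPKM (0.96, adjusted p = 0.004), and 40.2% of the exon bases of the antisense RNA are shared.

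HOXB-AS3 runs through the HOXB cluster (chr17:48549630-48606414, plus strand) across 4 coding genes, which encode homeodomain factors of axial patterning. It measured 4.23, 4.02 and 2.67 FPKM in NC and 6.58, 7.85 and 5.91 FPKM in siPSCA (0.76 ± 0.16, adjusted p = 0.011). The groups were apart and the call stood with the trend removed (0.55, adjusted p = 0.017). HOXB3, the partner with the longest overlap, went from 1.58 ± 0.247 to 2.08 ± 0.171 FPKM and did not pass the test (0.26, adjusted p = 0.077). AC010761.1 (chr17:28721487-28722877, minus strand) lies within RPL23A, which encodes a protein of the large ribosomal subunit. It measured 3.38, 3.19 and 4.07 FPKM in NC and 6.38, 6.07 and 5.68 FPKM in siPSCA (0.64 ± 0.09, adjusted p = 0.003), and RPL23A rose from 40.3 ± 10.7 to 79.9 ± 6.06 FPKM (1.00, adjusted p = 0.008). RPL23A has processed copies elsewhere in the genome, and it shares the stretch printed above with the antisense RNA, so these values are uncertain.

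TONSL-AS1 and PTOV1-AS2 rose beside a partner with a larger log2 fold change. In neither pair did the change of the ratio pass the test. TONSL-AS1 went from 2.50 ± 0.189 to 4.91 ± 0.451 FPKM (0.76 ± 0.08, adjusted p = 0.001) and TONSL, a gene of replication fork repair, from 9.07 ± 3.03 to 21.9 ± 1.19 FPKM (1.23). PTOV1-AS2 went from 3.00 ± 0.637 to 5.10 ± 0.824 FPKM (0.61 ± 0.15, adjusted p = 0.016), with a call lost without siPSCA 1 (0.51), and PTOV1 from 10.3 ± 2.11 to 22.0 ± 1.23 FPKM (1.04). Both have over 60% GC, and with the trend removed both missed the threshold, at 0.29 and 0.22. VPS9D1-AS1, AC018653.3 and ASB16-AS1 rose by 0.60, 0.52 and 0.49 and came to 0.02, 0.08 and 0.10 with the trend removed. VPS9D1-AS1 lost its call without siPSCA 1 (0.57) or siPSCA 3 (0.52). AC018653.3 lost it without NC 2 (0.57) or siPSCA 1, 2 or 3 (0.52, 0.57 and 0.46), and ASB16-AS1 without siPSCA 1, 2 or 3 (0.49, 0.49 and 0.50). Without NC 3, the ASB16-AS1 value was 0.34 and that of AC018653.3 was 0.34. AC116914.2, inside the integrin gene ITGAE, rose from 2.21 ± 0.876 to 4.69 ± 0.481 FPKM (0.86 ± 0.22, adjusted p = 0.018), a call lost without siPSCA 1 (0.81) or siPSCA 2 (0.84). AL158212.5, at the far end of the SNARE gene VTI1A, rose from 2.38 ± 0.296 to 4.55 ± 1.39 FPKM (0.68 ± 0.19, adjusted p = 0.027) with VTI1A level at 16.7 and 16.5 FPKM. Its call was lost without NC 1 (0.70), NC 3 (0.61), siPSCA 1 (0.52) or siPSCA 2 (0.64).

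A list of antisense RNAs with described functions held 39 RNAs, 22 of which are antisense rows in the table. Of these 22, 4 reached 3 FPKM: ZFAS1, FGD5-AS1, GABPB1-AS1 and HOXB-AS3. Listed RNAs that are not antisense rows were not examined. ZFAS1, a host of small nucleolar RNAs whose start faces that of ZNFX1, measured 23.4, 22.2 and 24.7 FPKM in NC and 16.0, 14.2 and 15.2 FPKM in siPSCA. The groups stood apart, and it fell by 0.60 on the log2 scale (SE 0.06, adjusted p = 0.001). The fall was larger with the trend removed (-0.87). ZNFX1, which encodes an antiviral RNA sensor, moved the other way, from 16.9 ± 1.37 to 20.2 ± 0.528 FPKM (0.25, adjusted p = 0.023), with 0.19 and an adjusted p of 0.052 with the trend removed. Of the exon bases of ZFAS1, 26.1% are shared with coding genes. GABPB1-AS1 measured 15.3, 15.9 and 16.6 FPKM in NC and 11.6, 11.9 and 12.9 FPKM in siPSCA, and it fell together with GABPB1, a subunit of the nuclear respiratory factor GABP. Both fell by 0.36 (adjusted p = 0.005 each), and GABPB1 went from 4.78 ± 0.231 to 3.52 ± 0.158 FPKM. With the trend removed the value of GABPB1-AS1 was -0.02 (adjusted p = 0.708) and that of GABPB1 was -0.05. FGD5-AS1 went from 18.3 ± 1.07 to 15.7 ± 0.403 FPKM (-0.20 ± 0.06, adjusted p = 0.029), a call kept only when NC 3 was left out, with -0.16 without NC 1, -0.20 without NC 2 and -0.19, -0.20 and -0.22 without siPSCA 1, 2 and 3. It was -0.03 with the trend removed. FGD5, its partner by overlap, was close to 0 at 0.0166 and 0.00232 FPKM.

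Of the 123 transcripts, 109 overlapped a coding gene, 103 of them on the opposite strand, and 25 overlapped more than 1. The partner was expressed at a mean of at least 1 FPKM for 94. In NC the antisense RNA stood at a median of 39.5% of the level of its tested partner, with quartiles at 16.2% and 100%, on the FPKM scale, which is per length. It exceeded the partner in 24 of 94 pairs.

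**Figure D4:**
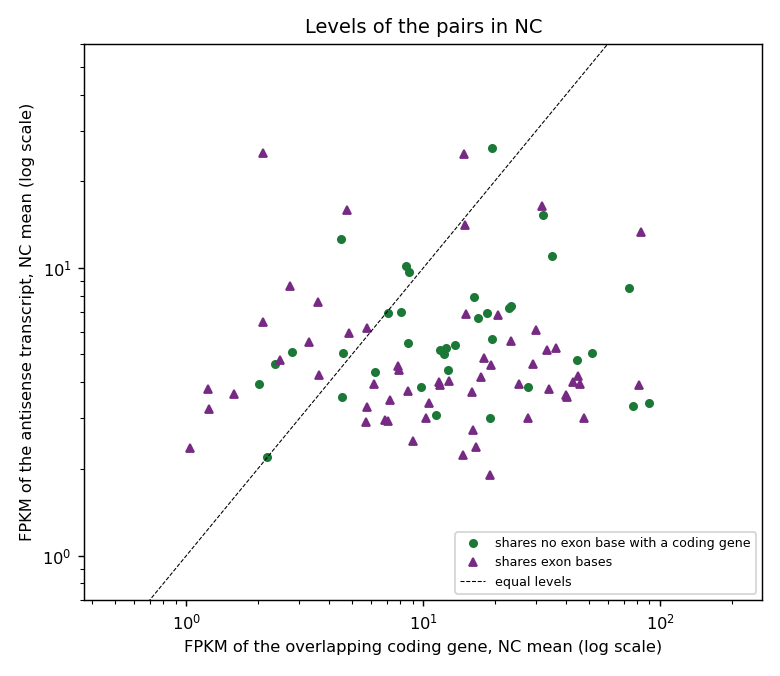
Mean FPKM in NC (n = 3) of the 94 antisense transcripts (vertical, log scale) against that of their overlapping coding genes (horizontal, log scale), split by whether the transcript shares exon bases with a coding gene. Points above the dashed line of equal levels (24) are pairs in which the antisense RNA is the higher one.

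Antisense RNA and partner mostly moved the same way. The 2 log2 fold changes had the same sign in 65 of 94 pairs, with a Spearman rho of 0.55, or 0.42 with the trend removed, over pairs measured in the same libraries. Among the 14 called rises none had a partner that fell. Among the 27 called falls with a tested partner, the partner fell in 14, rose in 4 and did not pass the test in 9. Of 53 transcripts that did not pass the test, 27 had a partner that rose and 7 one that fell. The 92 distinct tested partners included 41 that rose and 21 that fell, or 24 and 22 with the trend removed. Under removal of the trend, the 17 higher transcripts of these pairs had 8 partners that were higher and 1 that was lower, and the 22 lower ones had 14 that were lower and 1 that was higher. On bases that a pair shares, reads of the antisense RNA and of the partner cannot be told apart without strand. Where the partner lies on the same strand, strand would not separate them either. In a count without strand, reads from partner introns could also fall on antisense exons, even in pairs that share no exon base. How far this enters the correlation was not tested. The 4 transcripts called lower beside a partner called higher were AL591895.1, AC100830.2, AP002387.1 and AC015849.3. They face EPHX1 (an epoxide hydrolase of xenobiotic metabolism), OAZ2 (an antizyme that lowers ornithine decarboxylase), DHCR7 (the last enzyme of cholesterol synthesis) and TAF15 (an RNA-binding protein of the FET family). None of these 4 pairs kept both calls with the trend removed. AL591895.1, AC100830.2 and AC015849.3 stood at -0.52, -0.22 and -0.22 and missed the threshold, although EPHX1 and OAZ2 stayed higher (0.36 and 0.38). AP002387.1 stayed lower (-0.60, adjusted p = 0.012), but DHCR7 turned to -0.11 (adjusted p = 0.036), and TAF15 missed the threshold (0.19, adjusted p = 0.111).

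**Figure D5:**
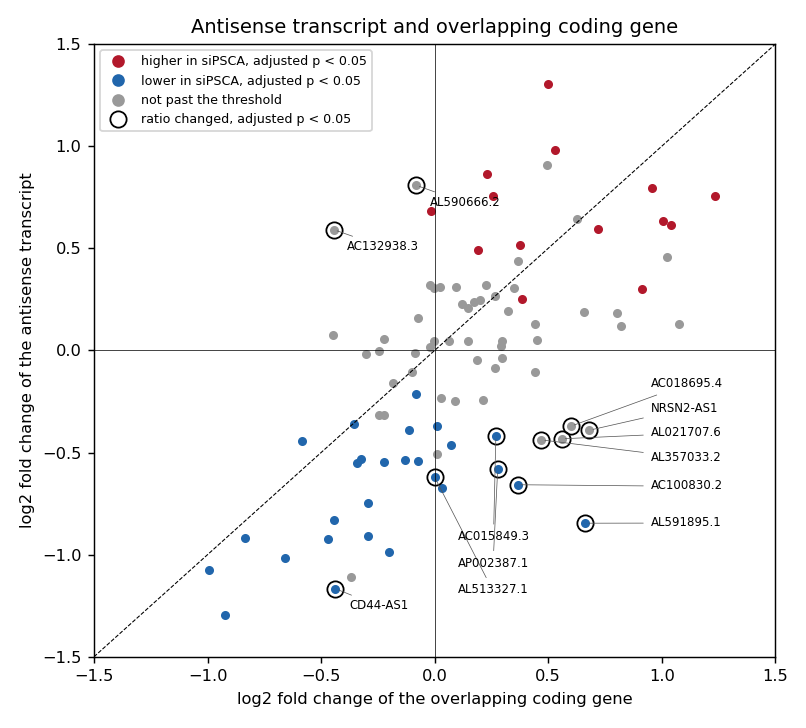
Log2 fold change of each antisense transcript against that of its overlapping coding gene (94 pairs). Colours give the call of the antisense transcript, rings mark the 12 pairs whose ratio changed at an adjusted p under 0.05, and the dashed line marks equal change. No red point lies beside a partner called lower.

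The ratio of antisense RNA to partner was tested in 439 pairs, of which 4.33% were higher and 11.8% lower with siPSCA. Among the 94 pairs described here 2 were higher and 10 lower. Their median log2 change of the ratio was -0.21, and that of all 439 pairs was -0.19. With the trend removed these medians were -0.02 and -0.04, and none of the 12 calls was kept. The 10 falls then lay between -0.87 and -0.36 and the 2 rises stood at 0.80 and 0.87, so for AL590666.2 (adjusted p = 0.054) the size hardly differed. The partners have a median GC content of 51.6% and the antisense RNAs of these pairs one of 48.4%.

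AL591895.1 (chr1:225840883-225846522, minus strand), tail to tail with EPHX1, showed the largest fall of the ratio. It measured 7.18, 6.93 and 6.51 FPKM in NC and 2.04, 5.17 and 3.47 FPKM in siPSCA, while EPHX1 rose from 20.7 ± 1.06 to 33.3 ± 1.71 FPKM. The log2 change of the ratio was -1.51 ± 0.26 (adjusted p = 0.009), and with the trend removed -0.87 (adjusted p = 0.085). The antisense RNA alone (-0.85 ± 0.24, adjusted p = 0.028) lost its call without NC 1 (-0.82), NC 2 (-0.84) or siPSCA 3 (-0.86), and without siPSCA 1 its value was -0.58. AC100830.2, inside OAZ2, fell from 5.18 ± 0.719 to 2.97 ± 0.912 FPKM (-0.66 ± 0.19, adjusted p = 0.027) as OAZ2 rose from 11.8 ± 0.829 to 15.5 ± 0.532 FPKM. Its own call was lost without NC 1 (-0.68), NC 2 (-0.57) or siPSCA 3 (-0.71), and its ratio fell by 1.02 (SE 0.22, adjusted p = 0.019), which missed the threshold without siPSCA 1 (-0.80). The call of AC100830.2 was also lost with the trend removed (-0.22, adjusted p = 0.344), without the filter (adjusted p = 0.074) and by limma-voom (-0.78, adjusted p = 0.085).

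In the other large falls of the ratio the partner was called higher and the antisense RNA did not pass the test as deposited. NRSN2-AS1, which encloses the transcription factor gene SOX12, measured 3.88, 6.56 and 4.64 FPKM in NC and 3.58, 2.83 and 4.27 FPKM in siPSCA, and the groups overlapped. SOX12 rose from 12.2 ± 2.60 to 20.0 ± 1.24 FPKM, and the ratio fell by 1.07 (SE 0.25, adjusted p = 0.021). That call was lost without NC 3 (-0.93), siPSCA 1 (-1.07) or siPSCA 2 (-0.92). AL021707.6, within SUN2, a nuclear envelope gene, measured 5.33, 5.15 and 2.60 FPKM in NC and 2.89, 2.75 and 2.91 FPKM in siPSCA, with NC 3 below all siPSCA libraries. SUN2 rose from 6.26 ± 1.15 to 9.62 ± 0.696 FPKM and the ratio fell by 0.99 (SE 0.18, adjusted p = 0.010). AC018695.4 fell by 0.97 against EMC8, a subunit of the membrane protein insertase of the endoplasmic reticulum (SE 0.20, adjusted p = 0.018, lost without siPSCA 2 at -1.001). AL357033.2 fell by 0.91 against NTSR1, the neurotensin receptor (SE 0.20, adjusted p = 0.019, lost without siPSCA 1 at -0.92 or siPSCA 2 at -0.86). The calls of both sides depended on the trend. With it removed AL357033.2 (-0.53, adjusted p = 0.038) and AL021707.6 (-0.60, adjusted p = 0.028) were lower, NTSR1 turned to -0.17 (adjusted p = 0.012), SOX12 and SUN2 missed the threshold at 0.16 and 0.12, and EMC8 stayed higher (0.43, adjusted p = 0.002). Without NC 3, AL021707.6 alone was lower at -0.70 (adjusted p = 4.4e-04).

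The 2 rises of the ratio were AC132938.3 against NARF and AL590666.2 against BCAN. AC132938.3, whose start lies 341 bases from that of NARF, measured 2.87, 3.15 and 2.16 FPKM in NC and 6.35, 3.33 and 4.45 FPKM in siPSCA. NARF, which encodes a binder of prelamin A, fell from 16.3 ± 1.45 to 11.7 ± 0.929 FPKM, and the ratio rose by 1.04 ± 0.23 (adjusted p = 0.019, lost without siPSCA 1 at 0.86). AC132938.3 alone missed the threshold (0.59, adjusted p = 0.053), also with the trend removed (0.22, adjusted p = 0.399). AL590666.2 measured 8.32, 7.80 and 3.29 FPKM in NC and 12.5, 11.1 and 10.6 FPKM in siPSCA. Its groups did not overlap, although the change alone missed the threshold (0.81 ± 0.29, adjusted p = 0.060). BCAN, the gene of the matrix proteoglycan brevican, measured 2.10 ± 0.253 and 1.92 ± 0.156 FPKM, and the ratio rose by 0.89 ± 0.22 (adjusted p = 0.025), a call lost without siPSCA 1 (0.86), siPSCA 2 (0.92) or siPSCA 3 (0.89). Without NC 3 the ratio rose by 0.59, and the antisense RNA alone by 0.45, which then passed the test (adjusted p = 0.004). AL590666.2 stood at 0.23 with the trend removed and missed the threshold, and BCAN was then lower at -0.64 (adjusted p = 0.004).

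Arrangement and exon sharing divided the transcripts as follows. Beside these counts, 26.6% of all genes tested were higher and 24.2% lower, or 21.2% and 18.4% with the trend removed. Most classes are small, and differences between them were not tested. Of 68 that lie inside the partner on the opposite strand 9 were higher and 21 lower, of 20 that lie tail to tail 3 were higher and 6 lower, and of 12 that lie head to head 2 were higher and 2 lower. Of the 14 with no overlapping coding gene none was higher and 4 were lower, and of 6 on the same strand as the partner none was higher and 5 were lower. None of the 3 that enclose the partner passed the test. Once the trend was removed, higher and lower numbered 11 and 17 inside the partner, 5 and 3 tail to tail, 1 and 1 head to head, 3 and 3 without an overlapping coding gene, and 0 and 4 on the same strand. Among the 56 transcripts that share no exon base with a coding gene 1 was higher and 19 were lower, with a median log2 fold change of -0.18 and a median GC content of 47.5%. Among the 67 that share exon bases 13 were higher and 19 lower, with a median of 0.02 and a GC content of 48.3%. With the trend removed the counts were 6 higher and 14 lower in the former and 14 higher and 14 lower in the latter. The 1 rise without shared bases was AC116914.2. Of the 6 transcripts with over 50% shared bases only AL928654.2 passed the test. OCIAD1-AS1, with 82.3% shared, measured 3.59, 4.33 and 7.67 FPKM in NC and 0.446, 2.97 and 2.69 FPKM in siPSCA, and its wide spread left it short of the threshold (-1.11 ± 0.44, adjusted p = 0.076).

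In 19 transcripts the start lay within 1000 bases of the start of a coding gene on the other strand, in 7 of them with the genes pointing apart. This class, and the transcripts of it named here, were chosen after the values were seen. Of the 19, 2 were higher and 8 lower, or 1 and 4 with the trend removed. Among all genes tested 26.6% were higher and 24.2% lower, or 21.2% and 18.4% with the trend removed. WAC-AS1, beside WAC, a regulator of histone H2B ubiquitination, measured 4.55, 4.92 and 5.13 FPKM in NC and 2.73, 3.14 and 3.15 FPKM in siPSCA (-0.55 ± 0.07, adjusted p = 0.002), and WAC fell from 18.1 ± 0.827 to 14.0 ± 0.191 FPKM (-0.34). PSMA3-AS1, whose start lies 251 bases from that of ARID4A, a gene for a retinoblastoma-binding protein, measured 8.35, 8.56 and 8.67 FPKM in NC and 5.67, 6.34 and 6.62 FPKM in siPSCA (-0.40 ± 0.07, adjusted p = 0.004). ARID4A fell from 4.39 ± 0.351 to 2.38 ± 0.365 FPKM (-0.68, adjusted p = 0.003). Both genes of this pair fell. OTUD6B-AS1, 7 bases from the start of the deubiquitinase gene OTUD6B, went from 5.24 to 4.21 FPKM (-0.26 ± 0.06, adjusted p = 0.017), a call lost without siPSCA 1 (-0.24) or siPSCA 2 (-0.26), and OTUD6B from 12.3 ± 0.588 to 10.5 ± 0.468 FPKM (-0.21). THAP9-AS1, 276 bases from THAP9, measured 12.4, 14.9 and 14.8 FPKM in NC and 9.68, 9.84 and 10.6 FPKM in siPSCA (-0.44 ± 0.08, adjusted p = 0.007), and THAP9 went from 1.98 ± 0.123 to 1.31 ± 0.0554 FPKM (-0.37, adjusted p = 0.011). The start of THAP9-AS1 also lies within the span of SEC31A, a coding gene on the same strand. SEC31A fell from 14.9 ± 0.104 to 9.63 ± 0.147 FPKM (-0.58, adjusted p = 6.1e-04), and by 0.48 with the trend removed. With the trend removed WAC-AS1 stood at -0.50 and THAP9-AS1 at -0.30, both past the threshold, whereas PSMA3-AS1 came to -0.07 and OTUD6B-AS1 to 0.07. Of the coding genes with the neighbouring starts, ARID4A stayed lower (-0.33, adjusted p = 0.018), and WAC, THAP9 and OTUD6B missed the threshold at -0.03, -0.08 and 0.07. AL591845.1 measured 6.09, 6.40 and 4.11 FPKM in NC and 2.03, 3.09 and 2.84 FPKM in siPSCA (-0.83 ± 0.18, adjusted p = 0.011), while EVA1B rose from 3.75 ± 1.95 to 9.72 ± 2.00 FPKM (1.26, adjusted p = 0.026), the gene whose start it faces. The former was -1.05 with the trend removed and the latter 0.63, which missed the threshold (adjusted p = 0.058). The coding gene it overlaps, SH3D21 on the same strand, with which it shares exon bases, fell from 3.28 to 2.14 FPKM (-0.44, adjusted p = 0.016).

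The start regions of 3 transcripts are shown from RefSeq on GRCh38.p14, each from 250 bases before to 50 bases after the start and written along the antisense strand. PSMA3-AS1 and THAP9-AS1 are of the class above, and MID1IP1-AS1, whose start lies further from that of MID1IP1, is not. PSMA3-AS1 (chr14:58298088-58298387, minus strand) is shown because the 83 bases in capitals also belong to the window of ARID4A. MID1IP1-AS1 (chrX:38803834-38804133) and THAP9-AS1 (chr4:82900867-82901166), both on the minus strand, are shown with each match to ACGTG on either strand in capitals. These letters are among the cores to which hypoxia-inducible factors bind, and no other form was searched for.
PSMA3-AS1: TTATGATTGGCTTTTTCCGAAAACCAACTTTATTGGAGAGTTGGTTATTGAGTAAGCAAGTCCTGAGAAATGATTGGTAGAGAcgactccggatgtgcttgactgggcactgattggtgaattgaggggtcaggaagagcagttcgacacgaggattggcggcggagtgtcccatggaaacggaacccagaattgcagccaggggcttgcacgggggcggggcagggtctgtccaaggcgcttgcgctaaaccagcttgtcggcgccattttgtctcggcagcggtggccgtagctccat
MID1IP1-AS1: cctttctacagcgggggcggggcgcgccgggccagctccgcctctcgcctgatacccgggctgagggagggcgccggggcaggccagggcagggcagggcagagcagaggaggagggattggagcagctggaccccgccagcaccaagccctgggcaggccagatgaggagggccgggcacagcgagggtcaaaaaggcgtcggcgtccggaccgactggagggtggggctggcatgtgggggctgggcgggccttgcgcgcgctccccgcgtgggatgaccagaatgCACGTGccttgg
THAP9-AS1: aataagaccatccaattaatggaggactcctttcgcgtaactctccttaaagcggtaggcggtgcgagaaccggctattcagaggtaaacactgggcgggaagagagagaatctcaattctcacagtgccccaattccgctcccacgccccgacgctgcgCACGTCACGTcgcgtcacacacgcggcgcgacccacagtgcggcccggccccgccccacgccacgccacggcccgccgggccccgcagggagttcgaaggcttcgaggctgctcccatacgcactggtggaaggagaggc
The match in MID1IP1-AS1 reads on both strands over the same letters, and the 2 in THAP9-AS1 lie side by side. Start windows were at hand for 26 of the 123 transcripts. ACGTG was present in 5 of them, or 19.2%, and in 21.4% of all 35116 windows. Of these 5, MID1IP1-AS1 and HOXB-AS3 rose, THAP9-AS1 and DLGAP1-AS2 fell and SREBF2-AS1 did not pass the test. A match is a run of letters and not a site. None of the 123 transcripts overlapped any of 55 coding genes on a list of hypoxia-responsive genes.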

How the data were processed

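RNA of HCT116SCs was sequenced as paired ends in 6 libraries, 3 with NC siRNA and 3 with siPSCA, grouped by the sample labels. The titles of siPSCA 2 and siPSCA 3 carry other numbers after HCT, while their other labels name HCT116, and both were kept. The authors deposited 1 table of FPKM values with length, position and biotype of 58735 genes. The submitters' processing notes name GRCh38. The aligner, the counting program, its strand setting and the test used for RNA sequencing are not given in the sources used here. All 58735 positions were those of GENCODE 29, which gave exons and GC content, the latter for 58676 genes. FPKM times gene length was a whole multiple of 1 step for 100% of values within 0.01 reads, which gave the reads.

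The linear model of limma 3.58.1 in R 4.3.3 (lmFit, then eBayes with a trend) was fitted to log2(FPKM + 1) of 13796 genes with a mean of at least 1 FPKM, and of 439 pairs for the ratio, with Benjamini-Hochberg adjustment over all genes or all pairs. Fold changes on this scale understate those of low genes. The partner was the protein-coding gene with the largest overlap in bases, with ties going to the higher mean FPKM. To remove the trend with base composition, log2 FPKM was regressed on natural splines (5 df) of GC content and log2 length in each library. Other alternatives were a pseudocount of 0.1, no filter, TPM, limma-voom on the recovered reads, a replicate block, another choice of partner and leaving out each library. The fits were tested on simulated data with a common dispersion for all genes and no trend with GC content or outlying library. That setting differs from these libraries, so it does not show how reliable the calls are here.

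Named were the 5 transcripts with the highest mean, the 12 largest rises and falls among called transcripts whose groups do not overlap, the 6 largest changes of the ratio each way where there were as many, those nearest the minimum, those on the list of described RNAs, and PSCA. All other transcripts named were chosen after their values were seen. The transcripts and lists were chosen with earlier results of these data known. Tables were handled in Python 3.11.15 with pandas 2.3.3, numpy 2.4.6, scipy 1.17.1 and matplotlib 3.10.9.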

Additional observations from a re-analysis of the deposited data

How the results depend on the processing

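Without the filter on low values 8 rather than 14 transcripts were higher. Leaving out 1 library at a time gave 8 to 18 higher and 29 to 38 lower, with 8 higher without siPSCA 1, and 6 of the 14 and 26 of the 38 calls were kept in all 6 such fits. The 2 rises of the ratio became 0 with a pseudocount of 0.1 and 0 with the trend in GC content and length removed, and 0 to 3 with a library left out (0 without siPSCA 1, 1 without siPSCA 2). The 10 falls of the ratio became 2 with a pseudocount of 0.1, 17 without the filter, 1 with the trend removed (AC090673.2 against HMGA2), 6 by limma-voom on recovered reads and 17 with the highest expressed overlapping gene as partner, and 4 to 11 with a library left out (4 without siPSCA 1 and 4 without siPSCA 2). AC005288.1 and AC099850.3 turned to 0.0302 and 0.0769 with the trend removed. The cause was not tested. The labels give same-numbered libraries only the number in common. Their deviations from the group means correlated at 0.10, 0.01 and 0.13, and those of differently numbered libraries at -0.13 to 0.04. These values do not settle whether the libraries were paired. A replicate block gave 14 higher and 37 lower transcripts and 2 higher and 9 lower ratios. With a median of 65.5 reads per transcript and library, small changes of most transcripts were not detectable at this depth.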
